A study of Mus musculus with 13 samples.

Results

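Sertoli cells exchange signals with their neighbours, and 2 of the short-range routes are Notch and Desert hedgehog. From these 2 routes 10 genes were followed in RNA of Sertoli cells enriched from the testis of adult mice. They are the ligand genes *Dhh* and *Jag1*, the receptor genes *Notch1*, *Notch2*, *Notch3* and *Ptch1*, the intracellular genes *Numb* and *Rbpj*, and the target genes *Hes1* and *Hey1*. They were taken by their exact names, and all 10 were found among the 27111 named features of the count table. All samples came from wild-type C57Bl/6J mice, labelled Bl6 wt, and the 6 control males were left undisturbed. The 7 MSUS males were exposed to early postnatal stress, in which litters spent 3 h of each day without the dam until postnatal day 14. The dams received 1 of 2 stressors without warning, forced swimming (5 min, 18°C) or confinement (20 min). Sertoli cells were sorted as large diploid cells with a high MitoTracker signal, without a transgene or an antibody, so that a share of other testicular cells remained possible. Each male gave 1 library from 5 ng of RNA. The control libraries held 13087108 to 18649819 counts in total, and the MSUS libraries held 12701664 to 15693836. Any pair of libraries, of 78 pairs, lay further apart than sampling noise alone allows, by a factor of 6.04 to 48.5. Litter and cage were not analysed here, so p-values measure the spread between these mice. The tests treat each mouse as independent, although the stress was applied to litters, so p-values may be too small if siblings were alike.

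In the Notch route a ligand on one cell, such as the JAG1 protein, binds a Notch receptor on the next cell. The receptor is then cut by proteases, and its freed inner part enters the nucleus, where it joins the DNA-binding protein RBPJ and switches on repressor genes of the HES and HEY families. In the testis, germ cells present ligands to Sertoli cells, and the repressors are known to restrain niche factor genes in Sertoli cells. In the hedgehog route, Desert hedgehog, encoded by *Dhh*, is secreted by Sertoli cells and received by PTCH1 on Leydig and peritubular cells. There it relieves SMO and leads to activity of the GLI transcription factors, among whose targets are *Gli1* and *Ptch1* itself.

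The sequences upstream of the start sites of both ligand genes and of the most abundant receptor gene are shown, because these genes open the routes described here. They were taken from RefSeq for GRCm38.p6, written 5′ to 3′ on the strand of the gene, and cut where an annotated exon began. Capitals mark the GC box GGGCGG, or CCGCCC for its reverse complement, a motif found in many promoters.
Dhh, chr15:98898541-98898790, minus strand: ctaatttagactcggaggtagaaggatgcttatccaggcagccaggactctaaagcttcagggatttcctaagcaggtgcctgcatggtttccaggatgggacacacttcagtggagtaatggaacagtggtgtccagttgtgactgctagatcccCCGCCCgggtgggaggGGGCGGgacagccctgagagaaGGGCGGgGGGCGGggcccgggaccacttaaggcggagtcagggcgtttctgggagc
Jag1, chr2:137116645-137116770, minus strand: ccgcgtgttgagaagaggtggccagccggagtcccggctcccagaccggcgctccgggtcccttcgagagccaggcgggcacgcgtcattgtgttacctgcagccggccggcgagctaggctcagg
Notch2, chr3:98013288-98013526, plus strand: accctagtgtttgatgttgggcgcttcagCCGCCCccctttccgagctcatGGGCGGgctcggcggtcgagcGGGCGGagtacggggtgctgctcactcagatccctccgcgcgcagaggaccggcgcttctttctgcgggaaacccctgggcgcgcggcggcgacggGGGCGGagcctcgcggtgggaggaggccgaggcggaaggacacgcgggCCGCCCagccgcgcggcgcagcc
The *Dhh* stretch of 250 bases held 4 GC boxes and the *Notch2* stretch of 239 bases held 5. The shorter *Jag1* stretch of 126 bases held 0, and so did the full window of 250 bases. The count of GC boxes did not follow the level of the gene, since the window of *Notch3*, the lowest of the 10 genes, held 4 and both windows of *Rbpj* held 0. Of all 32851 windows of 250 bases in the table, 32.7% held at least 1 GC box. The core letters of the RBPJ motif, TGGGAA or TTCCCA, were in 21.6% of the windows, in none of these 3 and, among the windows of the 8 members that the table holds, only in both of *Rbpj*. The Gli letters GACCACCC or GGGTGGTC were in 0.703% of the windows and in none of the 8 members' windows. A match of letters is not a binding site.

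The preparations were first compared with markers of testicular cells, given as the mean log2 CPM of each list. The 9 Sertoli cell markers had 8.68 ± 0.05 in the 6 controls and 8.66 ± 0.08 in the 7 MSUS samples (mean ± SD, as for all lists here), with *Clu* as the most abundant at 8650 CPM in controls. Germ cell RNA was present as well. The 4 elongated spermatid markers, led by *Prm2* with 614 CPM in controls, had 7.90 ± 0.23 and 8.09 ± 0.46. Spermatocyte markers had 4.74 ± 0.13 and 4.55 ± 0.43 and round spermatid markers 3.24 ± 0.23 and 3.36 ± 0.44. The 6 spermatogonial markers had 0.83 ± 0.26 and 0.84 ± 0.14, but *Dmrt1*, which Sertoli cells also express, had 125 CPM in controls of a median sum of 126, and 3 of the other 5 did not pass the count filter.

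Cells outside the tubule, some of which also use Notch receptors or receive hedgehog, had marker means below those of Sertoli cells, spermatocytes and spermatids. The 6 endothelial markers had 1.88 ± 0.27 in controls and summed to 54.8 to 70.4 CPM, led by *Pecam1* with 27 CPM. The 6 Leydig cell markers had 2.36 ± 0.58 in controls and 2.47 ± 0.35 in MSUS samples, with *Star* as the most abundant. The 5 pericyte markers had -0.92 ± 0.51 and -1.03 ± 0.50. Of the 6 macrophage markers, with -0.03 ± 0.23 and 0.04 ± 0.48, *Mrc1* had 470 CPM in controls and the other 5 did not pass the count filter. In bulk samples fewer cells of a type and less RNA per cell cannot be told apart.

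*Dhh*, on chromosome 15 of GRCm38 from 98891152 to 98898540 in GENCODE vM21, was among the most abundant of the 10 genes. The lowest control had 152 CPM, the median was 159 and the highest had 180. The lowest MSUS sample had 149 CPM, the median was 157 and the highest had 168. The groups overlapped almost completely, and the spread between mice was small in both, with an SD of 0.09 log2 units in controls and 0.06 in MSUS samples. The other hedgehog ligands were scarcely read. *Shh* had 7 counts and *Ihh* 6 counts over all 6 controls together, against 11689 for *Dhh*. The exons of *Dhh* share 546 bases with *Rhebl1* on the same strand, which had a mean of 31.3 counts in controls. How reads of the shared bases were divided was not tested.

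*Jag1*, on chromosome 2 from 137081456 to 137116644, was low. It ranged from 1.26 to 3.00 CPM in controls with a median of 1.64, and from 1.26 to 3.27 CPM in MSUS samples with a median of 1.97. These values rested on 13 to 44 counts per library, and no library was at 0. The other Notch ligands were also low. *Jag2* had a mean of 2.49 CPM in controls, *Dll4* of 0.51 and *Dll1* of 0.411. *Dll3*, whose product is known to act on Notch within the same cell rather than as an activating partner, had 8.11.

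Among the Notch receptors *Notch2*, on chromosome 3 from 98013527 to 98150361, prevailed. It ranged from 137 to 194 CPM in controls, with a median of 165, and from 158 to 259 CPM in MSUS samples, with a median of 171. Its exons share 541 bases with the annotated feature *Gm42820* on the same strand. *Notch1*, on chromosome 2 from 26457903 to 26516663, ranged from 30.2 to 50.3 CPM in controls, with a median of 40.8, and from 32.2 to 68.2 CPM in MSUS samples, with a median of 50.4. *Notch3*, on chromosome 17 from 32120820 to 32166852 and known from pericytes and vascular smooth muscle, was near the detection limit. It had 0 to 11 counts in a library in both groups, with 1 control and 2 MSUS libraries at 0. A count of 0 allowed up to 0.221 CPM in that control library, for counting error only. *Notch4*, an endothelial receptor, had a mean of 1.34 CPM in controls.

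Because a longer transcript gives more reads, levels of different genes were compared per kb of the longest annotated transcript. On this scale *Notch2* exceeded *Notch1* by 1.86 ± 0.15 log2 units within the same control sample (SD, n = 6), with extremes of 1.63 and 2.03. It was positive in 6 of 6 controls (exact sign-flip permutation test, two-sided, p = 0.03125, which is the smallest this design allows, and p = 0.03125 after adjustment over 4 pairs). With the median annotated transcript length this difference was -1.92, because short annotated fragments bring the median of *Notch1* to 406 bases, against 6198 for *Notch2*. Without any correction for length it was 2.01. *Notch1* exceeded *Notch3* by 6.40 ± 1.26 (SD, n = 6), and *Notch2* exceeded *Notch3* by 8.26 ± 1.13 (SD, n = 6). Both were positive in 6 of 6 controls with the same exact p of 0.03125, but the sizes depend on the prior count, since *Notch3* was nearly absent.

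The hedgehog receptor gene *Ptch1*, on chromosome 13 from 63508328 to 63573598, ranged from 28.6 to 41.5 CPM in controls, with a median of 37.7, and from 34.8 to 55.4 CPM in MSUS samples, with a median of 39.1. Control 12 was the lowest of all samples and MSUS 26 the highest. The co-receptor genes *Cdon* and *Gas1* had means of 11.3 and 7.25 CPM in controls. Several genes that act next in the route were low and did not pass the count filter. *Smo*, whose product PTCH1 holds in check, had a mean of 0.678 CPM in controls and was read in all 6, while *Gli1* had 0.166, *Gli2* 0.372 and *Gli3* 0.375, and *Gli1* was at 0 in 3 of 6 controls. The hedgehog target *Hhip* had 0.241 CPM.

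*Rbpj*, on chromosome 5 from 53466152 to 53657362, ranged from 68.7 to 88.1 CPM in controls, with a median of 78.7. Its range in MSUS samples was 68.3 to 91.2 CPM, with a median of 74.4. *Numb*, on chromosome 12 from 83794034 to 83921934, encodes an adaptor that removes Notch receptors from the cell surface. It ranged from 19.8 to 28.6 CPM in controls, with a median of 22, and from 18.5 to 28.7 CPM in MSUS samples, with a median of 24.3. For both genes the groups overlapped over nearly their whole range.

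Of the target genes, *Hes1*, on chromosome 16 from 30064384 to 30067796, was well expressed. It ranged from 48.1 to 79.7 CPM in controls, with a median of 59.6, and from 53.5 to 82.5 CPM in MSUS samples, with a median of 65.7. *Hey1*, on chromosome 3 from 8663359 to 8667256, ranged from 1.02 to 2.38 CPM in controls, with a median of 1.41, and from 0.179 to 2.15 CPM in MSUS samples, with a median of 1.72. The low end was the library of MSUS 6, with 2 counts. Per kb, *Hes1* exceeded *Hey1* by 5.92 ± 0.55 log2 units (SD, n = 6) in 6 of 6 controls (exact sign-flip permutation test, two-sided, p = 0.03125, and p = 0.03125 after adjustment over 4 pairs). Other targets were unequal too. *Hes6* had a mean of 9.76 CPM in controls and *Hes7* of 5.30, while *Heyl* had 1.52, *Hey2* 0.939 and *Nrarp* 0.308, and *Hes5* was at 0 in 5 of 6 controls.

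**Figure D1:**
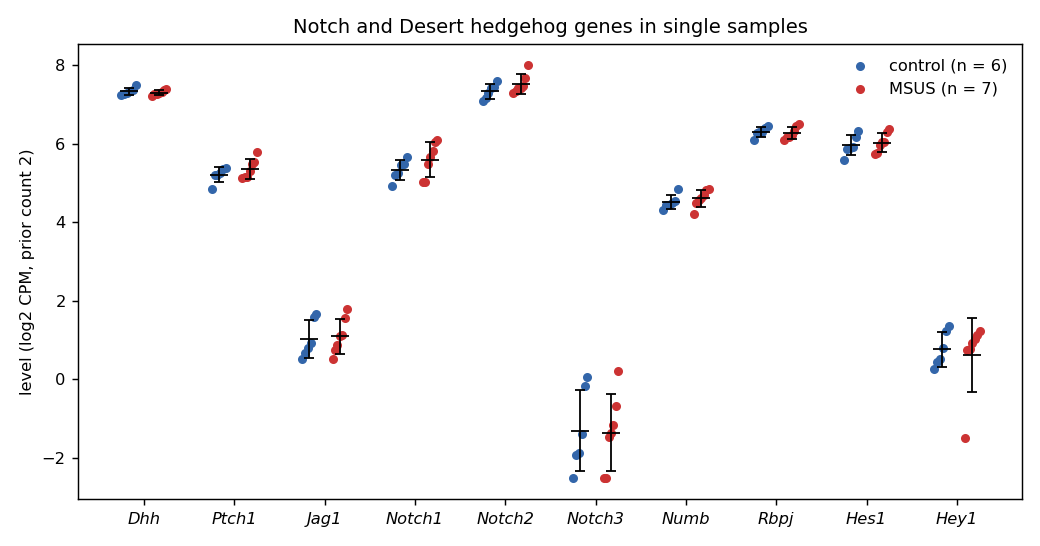
Level of each of the 10 genes in log2 CPM (vertical axis) in 6 control and 7 MSUS samples, with 1 point per sample and the mean and SD in black. *Dhh* and *Notch2* had the highest means, *Jag1*, *Hey1* and *Notch3* lay far below the other genes, and the groups overlapped for every gene.

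Ordered per kb of transcript in controls, *Hes1* (5.41 log2 CPM per kb) and *Dhh* (5.25) came first. They were in this order in 4 of 6 controls, and their difference of 0.16 was within its SD of 0.28. *Notch2* (3.95) and *Rbpj* (3.85) followed, with a difference of 0.10 that was also within its SD of 0.11. *Dhh* exceeded *Notch2* by 1.30 and *Rbpj* exceeded *Numb* (2.69) by 1.16, in 6 of 6 controls each. *Notch1* (2.08) lay 0.60 below *Numb* and 0.25 above *Ptch1* (1.84). The place of *Ptch1* depended on the transcript, because with its longest coding transcript of 7725 bases, an alternative chosen after the values were seen, its level was 2.26. So did the place of *Notch1*, because with median transcript lengths the difference between *Notch2* and *Notch1* was -1.92. Median lengths run from 406 bases (*Notch1*) to 6198 (*Notch2*). The full order was not compared with them and is given for the longest transcript only. *Hey1* (-0.51), *Jag1* (-1.46) and *Notch3* (-4.31) came last, each in this order in 6 of 6 controls. Among the tested genes with a known length, *Hes1* was above 89.6%, *Dhh* above 88.0%, *Notch2* above 70.5% and *Jag1* above 4.99%.

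**Figure D2:**
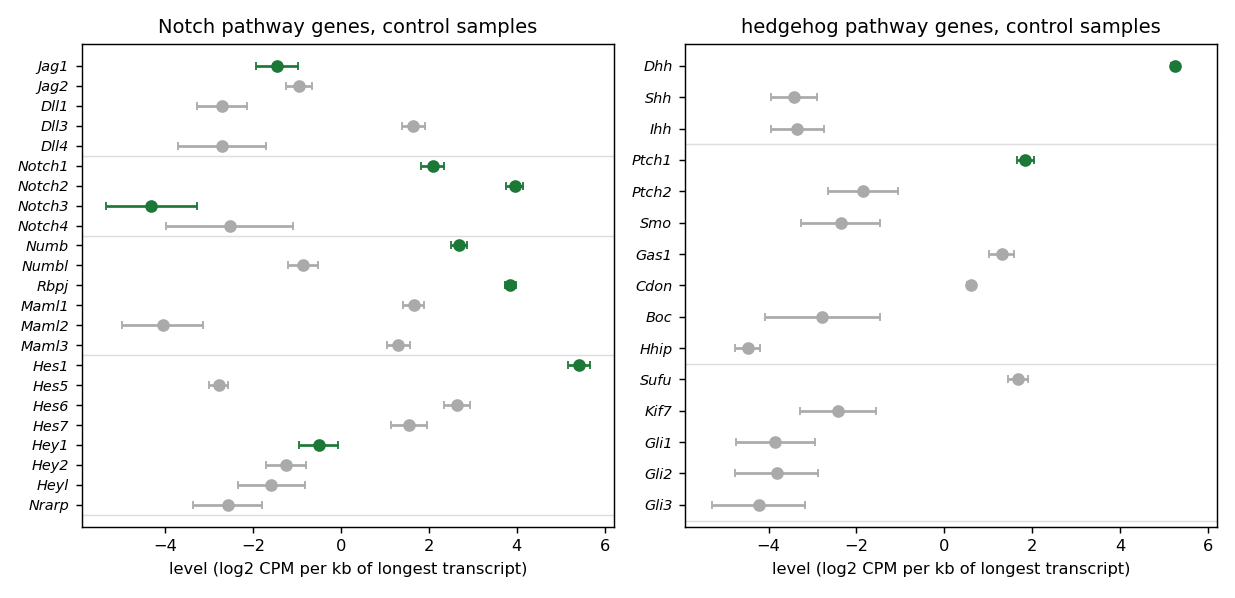
Mean level per kb of the longest transcript in 6 control samples (horizontal axis, log2 CPM per kb), with bars for the SD. Panels show Notch and hedgehog genes from top to bottom as ligands, receptors, intracellular genes and, for Notch, targets, with the 10 genes in green. Levels under about -2 rest on few counts and on the prior count. Of the plotted genes of each group, *Dhh*, *Notch2*, *Rbpj* and *Hes1* were the highest, while *Jag1* was below *Dll3*.

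Several genes around the receptors were read at higher levels per kb than the receptors. Of 48 further Notch genes, 36 passed the count filter. Among the highest per kb were *Ncstn*, a subunit of the γ-secretase that cuts the receptor, with 6.60 log2 CPM per kb in controls, and *Dtx1*, a gene for a ubiquitin ligase of the deltex family, with 5.72. All 10 genes for receptor cleavage passed the filter, including the protease gene *Adam10* with 226 CPM in controls. Of 5 genes for receptor glycosylation 3 passed, and the fringe gene *Lfng* had 2 counts over all 6 controls. Of 28 further hedgehog genes, 19 passed. The highest per kb were *Spop* (4.11), a gene for an adaptor that marks GLI proteins for breakdown, and *Kif3a* (3.84) and *Arl13b* (3.40), which serve the primary cilium.

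The question of the second comparison was whether early postnatal stress changed these genes in adult Sertoli cells. None of the 9 that could be tested differed beyond the spread between mice. *Notch3* did not pass the count filter and was not tested. The largest positive estimates were those of 2 Notch receptors and of *Ptch1*. For *Notch1* the log2 fold change was 0.27 (standard error 0.17, 95% confidence interval -0.10 to 0.64), with 4 of 7 MSUS samples above all controls. *Notch2* had 0.18 (standard error 0.11, interval -0.04 to 0.41), with 2 of 7 above all controls. *Ptch1* had 0.15 (standard error 0.12, interval -0.09 to 0.40), with 3 of 7 above all controls.

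By the limma fit the unadjusted p was 0.138 for *Notch1*, 0.106 for *Notch2* and 0.198 for *Ptch1*, and the adjusted p was 0.878, 0.878 and 0.890. Exact permutation tests over all 1716 arrangements gave p = 0.225, 0.172 and 0.262, two-sided. Over all 14421 genes tested 5.42% had an unadjusted p under 0.05, 3.02% higher and 2.4% lower, and the count among the 9 tested members was 0. The groups did not overlap for 0.132% of all genes, and for 0 of the members. By limma 0 genes of the whole table passed adjustment, with 781 at an unadjusted p under 0.05. With edgeR's quasi-likelihood test and with DESeq2 0 genes passed adjustment as well, with 793 and 835 genes at an unadjusted p under 0.05. Of the 9 members 6 had a positive log2 fold change, against 49.5% of all genes tested, and 3 a negative one, against 50.5%. Their median was 0.08, and that of all genes was -0.0018.

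The ligand *Dhh* had the narrowest interval, at -0.03 on the log2 fold scale (standard error 0.05), and its 95% limits were -0.15 and 0.08. On a linear scale these limits are 0.904 and 1.06 times the control level. For *Rbpj* the log2 fold change was -0.03 (interval -0.19 to 0.14), for *Hes1* 0.08 (-0.17 to 0.33) and for *Numb* 0.11 (-0.12 to 0.34). The scarce genes allowed no such limits. The interval of *Jag1* went from -0.58 to 0.65 around 0.04, and that of *Hey1* from -1.19 to 0.69 around -0.25. Without the MSUS 6 library *Hey1* had 0.19. The estimate for *Hey1* also varied with the method, with -0.043 by edgeR's quasi-likelihood test, -0.037 by DESeq2 and -0.50 with sample quality weights. The members' adjusted p in limma ranged from 0.878 to 0.986.

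**Figure D3:**
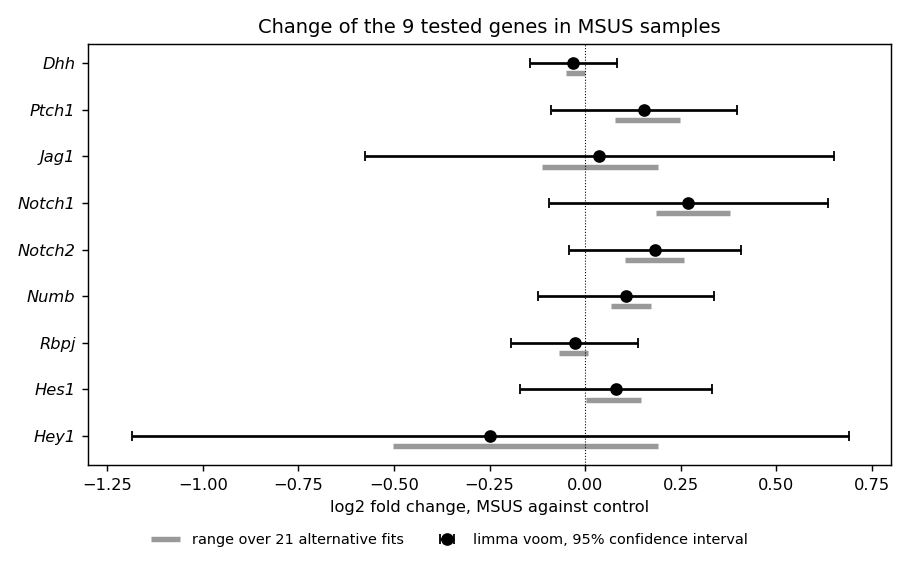
Log2 fold change of MSUS against control (horizontal axis) for the 9 tested genes, with limma voom estimates as points, 95% confidence intervals as black bars and the range over 21 alternative fits as grey bars. Every interval included 0, and that of *Dhh*, from -0.15 to 0.08, was the narrowest of the 9.

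MSUS 26 had the highest level of *Notch2* (8.02 log2 CPM) and *Ptch1* (5.80) of all samples, and for *Notch1* (6.06) it was exceeded by MSUS 1 (6.10). Over all genes MSUS 26 lay apart from the other libraries by a factor of 14.5 (control 10) to 48.5 (control 24), the largest of all pairs. MSUS 26 also had the lowest mean of the elongated spermatid markers, 7.26 log2 CPM, against 7.50 to 8.56 in the other samples. When this mean was added to the limma model as a covariate, the log2 fold change was 0.38 for *Notch1* (unadjusted p = 0.0181), 0.26 for *Notch2* (unadjusted p = 0.0101) and 0.25 for *Ptch1* (unadjusted p = 0.0138). In that model 1204 genes had p under 0.05 in place of 781, and 0 passed adjustment. The part of germ cell RNA in these values was not otherwise tested. Without MSUS 26 the log2 fold change was 0.10 for *Notch2* and 0.08 for *Ptch1*. Without control 12, the lowest control for all 3 genes, it was 0.18 for *Notch1*, 0.13 for *Notch2* and 0.08 for *Ptch1*.

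Levels of the members were also compared with each other across the 13 samples. Of 45 pairs, 3 had a Pearson correlation with an adjusted permutation p under 0.05, while by Spearman's rank correlation 0 had. How often pairs of other genes correlate in these libraries was not tested, so the count cannot be called particular to these routes. *Notch1* and *Notch2* rose and fell together, with r = 0.73 (permutation p = 0.00295, adjusted p = 0.0442) and rho = 0.71 (permutation p = 0.00833, adjusted p = 0.147). Within the groups r was 0.80 in controls and 0.64 in MSUS samples, and without MSUS 1 and MSUS 26, the samples farthest from the median of *Notch1*, it was 0.69 (permutation p = 0.0195). *Notch2* and *Ptch1* had r = 0.85 (permutation p = 0.00052, adjusted p = 0.013) and rho = 0.68 (permutation p = 0.0139, adjusted p = 0.147). Within the groups r was 0.81 in controls and 0.84 in MSUS samples. Without MSUS 26 and control 12, the extremes of *Notch2*, r was 0.57 (permutation p = 0.0692), so the relation no longer passed the threshold in the 11 samples left. *Notch3* and *Hes1* had r = 0.83 (permutation p = 0.00058, adjusted p = 0.013) and rho = 0.77 (permutation p = 0.00274, adjusted p = 0.123), and without MSUS 6 and control 12 r was 0.81 (permutation p = 0.00291), but *Notch3* had at most 11 counts per library. *Dhh* and *Ptch1*, ligand and receptor of one route, had r = 0.02 (permutation p = 0.952, adjusted p = 0.974).

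**Figure D4:**
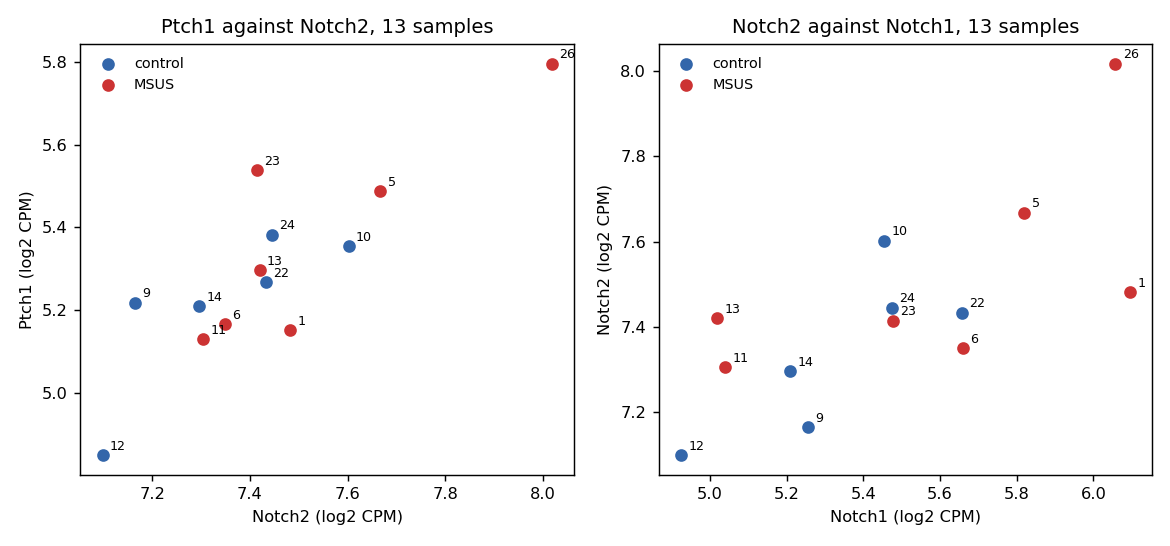
*Ptch1* against *Notch2* (left) and *Notch2* against *Notch1* (right), in log2 CPM, with 1 point per sample and the replicate number beside it. MSUS 26 lies at the upper right and control 12 at the lower left of both panels.

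In the wider routes 1 gene passed an unadjusted p under 0.05. *Sufu*, which encodes the inhibitor that binds GLI factors in the cytoplasm, ranged from 11.7 to 17.4 CPM in controls and from 15.9 to 23.1 CPM in MSUS samples. All 7 MSUS samples were above the control mean, and 4 of 7 were above all controls, so the groups overlapped. Its log2 fold change was 0.41 (standard error 0.12, unadjusted p = 0.00342, limma's adjusted p = 0.878), and an exact permutation test gave p = 0.00466, two-sided. The value lay between 0.36 and 0.46 in 21 alternative fits. *Sufu* was thus 1 of 19 tested hedgehog genes, or 5.26%. Of all genes 3.02% were higher at that threshold and 5.42% passed it in either direction, so the share was not above that of all genes in either direction. Of the hedgehog genes 11 were higher and 8 lower by sign. None of the 36 further Notch genes had p under 0.05, with 19 higher and 17 lower by sign. The cleavage genes had log2 fold changes between -0.12 and 0.11.

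Among the marker lists of other cell types, *Tek*, a receptor gene of endothelial cells, had a log2 fold change of 0.75 (unadjusted p = 0.0274, limma's adjusted p = 0.878), and *Sycp2* of spermatocytes had -0.34 (unadjusted p = 0.0379, limma's adjusted p = 0.878). *Tek* was 1 of 5 tested endothelial markers and *Sycp2* 1 of 6 spermatocyte markers at that threshold, beside 5.42% of all genes. By sign, 4 endothelial markers were higher and 1 lower (*Cdh5*, -0.15). Of the spermatocyte markers 5 were lower and 1 higher (*Spag6*, 0.18). *Tek* passed the unadjusted threshold in 18 of 21 alternative fits and *Sycp2* in 11 of 21. Exact permutation tests gave p = 0.014 for *Tek* and p = 0.107 for *Sycp2*. The endothelial markers averaged 2.11 ± 0.18 log2 CPM in the 7 MSUS samples, beside 1.88 ± 0.27 in the 6 controls (mean ± SD). Its part in the levels of *Notch1* was not tested. The peritubular myoid markers, whose cells receive hedgehog, averaged 1.70 ± 1.27 in the 7 MSUS samples, beside 1.09 ± 0.99 in the 6 controls, and their 5 genes summed to at most 92.8 CPM in any sample. By sign all 4 tested myoid markers were higher, with a median log2 fold change of 0.66 and unadjusted limma p from 0.13 to 0.467. All 4 elongated spermatid markers were higher as well (median 0.19), while of the 9 Sertoli cell markers 3 were higher and 6 lower.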

How the data were processed

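Salmon 1.1.0 estimates on GENCODE vM23 transcripts, after trimming with Trim Galore 0.6.5, were deposited by the authors as estimated counts per gene without normalization. How transcripts were summed to genes is not given in the sources used here. Values were rounded to whole counts. For *Dhh*, *Notch2*, *Rbpj* and *Ptch1* they held fractions in 12 or 13 samples, and the reason is not given. The 27170 features with no gene name held 20.7% to 26.7% of the counts per sample and were left out. The kit keeps the strand of the RNA.

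Counts were normalized with TMM (edgeR 4.0.16) and tested with limma 3.58.1 after voom in R 4.3.3, as in the study's methods, with the group as the only term. Genes entered by filterByExpr, and p-values were adjusted by the Benjamini-Hochberg method over all 14421 genes tested. A prior count of 2 was used for log2 CPM, and log2 fold changes are from voom. Alternatives were DESeq2 1.42.0, the quasi-likelihood test of edgeR, other normalizations, filters, sample weights, 1 covariate and leaving out each sample. Code was tested on simulated data.

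Positions and transcript lengths were read from GENCODE vM21 (GRCm38), the build of vM23. Promoter windows were found for 8 of the 10 members. Permutation tests of correlations used 100000 resamples. The spread between libraries, 1 per mouse, holds differences between mice, library preparation and counting error, which cannot be told apart. Litter and cage were not analysed here. Replicate numbers are those in the sample titles.

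The 10 members, the wider Notch and hedgehog lists and the marker lists were chosen with earlier results of these data known. Named from the wider lists were genes with an unadjusted p under 0.05 and the 3 highest per kb in controls, of which 1 is not reported here. All others named were picked for their role after their values were seen.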

Additional observations from a re-analysis of the deposited data

Results flagged for a closer look

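In each group, the members, *Sufu* and the 10 marker lists were searched for a single sample standing apart from the rest by Dixon's test at 95%. Of 42 sets of values 4 held one, and chance gives about 1 in 20, or 2.1. *Hey1* in MSUS 6 had -1.50 log2 CPM, while the remaining MSUS samples had 0.76 to 1.22. *Ptch1* in control 12 had 4.85 log2 CPM, while the remaining controls had 5.21 to 5.38. The round spermatid markers averaged 4.29 log2 CPM in MSUS 11 and 2.94 to 3.49 in the remaining MSUS samples. The pericyte markers averaged 0.023 log2 CPM in control 14 and -1.37 to -0.86 in the remaining controls.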

How the results depend on the processing

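Of 198 log2 fold changes of the 9 tested members under 22 alternatives, 183 kept their direction and their side of the threshold, 9 changed sign and 6 passed the unadjusted threshold. With the elongated spermatid markers as covariate 3 members, 2 of the further Notch genes and 1204 of all genes had p under 0.05, and *Jag1* had -0.11. Without a filter on low counts these were 1 further Notch gene and 1182 of all genes, and with sample quality weights 2 hedgehog genes and 1045 of all genes passed. Leaving out each sample in turn gave 0 to 1 members, 0 to 3 further Notch genes, 1 to 2 hedgehog genes and 534 to 1121 of all genes. Without MSUS 11 or MSUS 13 *Notch1* passed (unadjusted p = 0.0374 and 0.0344), and without control 10 *Notch2* did (unadjusted p = 0.0433). In those fits 1051, 1023 and 1121 of all genes had p under 0.05, against 781 in the main fit. Leave-one-out values ranged from -0.083 to 0.19 for *Jag1*, from -0.35 to 0.19 for *Hey1*, from -0.069 to 0.0066 for *Rbpj*, from 0.0032 (without control 22) to 0.15 for *Hes1*, from -0.05 to -0.0011 (without control 24) for *Dhh* and from 0.07 to 0.17 for *Numb*. When TMM was replaced by library size alone, 325 genes with p under 0.05 were higher and 469 lower, against 435 and 346, and 2 pairs of members were correlated. The difference between *Notch2* and *Notch1* per kb was -1.92 with median transcript lengths, and 1.83 to 1.91 when a control was left out. Of 21 alternative fits, unadjusted p stayed under 0.05 in 21 for *Sufu*, in 18 for *Tek* (not with the covariate, without MSUS 6 or without control 22) and in 11 for *Sycp2* (not with edgeR or DESeq2, nor without MSUS 1, 5, 6 or 26 or without control 9, 10, 12 or 22). No paired analysis was made, because the sample titles name no pairs between the groups.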
